A study of Mus musculus with 10 samples.

Results

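Melanocytes are the pigment cells of the skin, and a primary culture of epidermal cells can carry some of them along. Melanin is made in melanosomes, organelles in which tyrosinase starts pigment synthesis from tyrosine, related enzymes carry the intermediates on, and a fibrous scaffold holds the pigment. The transcription factors MITF and SOX10 drive this gene programme, and the receptor KIT, bound by stem cell factor from keratinocytes, supports melanocyte survival and migration. In human melanocytes, IL-17 together with TNF is known to lower pigmentation gene expression. The genes described here are 10 markers of this lineage, found in the deposited expression table by matching its Ensembl identifiers to the symbols Tyr, Tyrp1, Dct, Pmel, Mlana, Slc45a2, Oca2, Mitf, Sox10 and Kit in the GRCm38 annotation. All 10 were among the 37991 identifiers of the table, and all 10 reached a mean of 1 FPKM (fragments per kilobase of gene, scaled to the mapped fragments of the library), the minimum used for testing.

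The study grew primary keratinocytes from mouse pups at postnatal days 4 to 5 and asked how loss of the signalling adaptor BCL10 changes the transcriptome and the response to the cytokine IL-17A. Bcl10-/- cultures (knockout) were compared with Bcl10+/- cultures of littermates (heterozygous), all on the allele Bcl10tm1Mak, so that the controls also carry 1 mutant copy. Cells received 200 ng/mL of recombinant mouse IL-17A for 5 h or stayed unstimulated, in serum-free medium with 0.05 mM calcium chloride. There were 2 knockout libraries with IL-17A, 2 unstimulated knockout libraries, 3 heterozygous libraries with IL-17A and 3 unstimulated heterozygous libraries. A genotype and a number together name a culture here, which gives 5 cultures with 2 libraries each; whether numbers stand for separate animals is not stated, so the spread behind each p-value may be technical in part.

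The cultures were keratinocyte cultures by their markers, since Krt5, a keratin of basal keratinocytes, lay between 4430 and 6426 FPKM and its partner Krt14 between 3723 and 5015 FPKM. The targeted gene did not follow the labels in all libraries. Bcl10 stood at 16.4 and 16.6 FPKM in the knockout libraries with IL-17A and at 0.969 and 17.0 FPKM in the unstimulated ones, against 16.3, 72.3 and 60.6 FPKM in heterozygous cultures 1, 2 and 3 with IL-17A and 18.0, 67.0 and 59.5 FPKM in the same cultures unstimulated. Both libraries of the culture labelled heterozygous 1 were therefore at the level of most knockout libraries, which goes against the label, and differences between genotypes are given below with and without that culture. The libraries of knockout culture 1 also differed from each other, with Bcl10 at 16.4 FPKM with IL-17A and 0.969 FPKM unstimulated. The labels also number the libraries: the knockout cultures and the culture labelled heterozygous 1 have numbers between 1 and 14, and heterozygous cultures 2 and 3 have numbers between 33 and 38. No knockout library is numbered above 14, so the effects of genotype and of the number set cannot be told apart where heterozygous cultures 2 and 3 are the comparison.

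The first of the enzymes is Tyr, tyrosinase, which catalyses the rate-limiting step of melanin synthesis (GRCm38 chromosome 7, 87424771 to 87493512, minus strand). Tyrp1 (chromosome 4, 80834123 to 80851719, plus strand) encodes an enzyme of the eumelanin branch, and Dct (chromosome 14, 118012790 to 118052244, minus strand) encodes dopachrome tautomerase, which acts upstream of TYRP1. Pmel (chromosome 10, 128704195 to 128720238, plus strand) encodes the scaffold protein that forms the fibrils melanin settles on. Mlana (chromosome 19, 29697824 to 29708634, plus strand), also known as MART-1, encodes a melanosome membrane protein. Slc45a2 (chromosome 15, 11000721 to 11029233, plus strand) and Oca2 (chromosome 7, 56239760 to 56536518, plus strand) encode membrane transport proteins that set the conditions inside the melanosome. The regulators are Mitf (chromosome 6, 97807052 to 98021349, plus strand) and Sox10 (chromosome 15, 79154908 to 79165240, minus strand), and the receptor is Kit (chromosome 5, 75574916 to 75656722, plus strand). Exons of Pmel overlap 34 bases of Cdk2 and 105 bases of Dgka on the opposite strand. Cdk2 averaged 22.7 FPKM and Dgka 32.3 FPKM, and since the strand setting of the counting is not given, reads in those stretches cannot be told apart.

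MITF binds short E-box sequences, and the letters CATGTG are the form known from pigment enzyme promoters. RefSeq promoter windows (GRCm38.p6, 250 bases before to 50 after the start) were at hand for 6 of the 10 genes, Dct, Tyr, Tyrp1, Oca2, Mitf and Kit. CATGTG was found on either strand in Tyr, Tyrp1, Dct and Oca2, 4 of these 6 genes and 4 of their 9 windows, and in 14.2% of all 32851 promoter windows of the same length. The stretches are shown because they hold these letters in the 3 melanin enzyme genes and Oca2; capitals mark CATGTG, or CACATG where it reads on the opposite strand. The Tyr stretch is chr7:87493513-87493612 (minus strand), the Tyrp1 stretch chr4:80834153-80834182 (plus strand), the Dct stretch chr14:118052327-118052426 (minus strand) and the Oca2 stretch chr7:56239539-56239638 (plus strand), each written 5′ to 3′ along its gene.
Tyr: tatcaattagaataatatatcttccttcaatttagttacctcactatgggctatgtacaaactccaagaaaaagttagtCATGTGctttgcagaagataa
Tyrp1: agtggggagggagtCATGTGctgcctagta
Dct: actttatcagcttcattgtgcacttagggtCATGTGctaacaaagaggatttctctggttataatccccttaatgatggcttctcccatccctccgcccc
Oca2: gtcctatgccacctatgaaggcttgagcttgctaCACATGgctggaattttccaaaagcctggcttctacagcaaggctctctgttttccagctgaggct
The first capital lies 21 bases before the RefSeq start in Tyr, 46 in Tyrp1, 150 in Dct and 186 in Oca2. ACAAAG, a core recognised by SOX proteins, was in the windows of Dct, Tyrp1 and Oca2 and in 18.7% of all windows, while CACGTG and AACAAT, which occur in 7.15% and 10.7% of all windows, were in none of the 6 genes' windows. These matches describe letters only.

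In every library the 10 genes were present at levels far below the keratins, and Dct was the highest of them. Dct, Pmel, Tyrp1 and Mlana together made up 90.8% to 93.4% of the summed FPKM of the 10 genes, a scale that is per gene length and so allows genes to be set beside each other. Mitf, the master regulator, was among the lowest, between 0.887 and 1.52 FPKM.

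Tyr stood at 4.88 and 3.84 FPKM in knockout cultures 1 and 2 with IL-17A and at 5.94 and 4.17 FPKM in the same cultures unstimulated, against 4.27, 13.0 and 7.96 FPKM in heterozygous cultures 1, 2 and 3 with IL-17A and 5.46, 11.1 and 8.41 FPKM in the same cultures unstimulated. Heterozygous cultures 2 and 3 were high and the culture labelled heterozygous 1 lay among the knockout cultures, so the genotypes overlapped in both conditions. The change of knockout over heterozygous on the log2(FPKM + 1) scale was -0.71 (SE 0.39) with IL-17A and -0.59 (SE 0.39) unstimulated, with adjusted p of 0.507 and 0.728 by limma. Differences on this scale understate those of low genes.

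Tyrp1 was at 35.6 and 47.4 FPKM in knockout cultures with IL-17A and at 38.2 and 49.3 FPKM in unstimulated ones, against 34.5, 66.3 and 84.8 FPKM in heterozygous cultures with IL-17A and 36.5, 67.8 and 85.9 FPKM in unstimulated ones. Its order of cultures was its own: the culture labelled heterozygous 1 was lowest, then knockout culture 1, knockout culture 2, heterozygous culture 2 and heterozygous culture 3. Knockout over heterozygous came to -0.48 with IL-17A (adjusted p = 0.566) and -0.45 unstimulated (adjusted p = 0.733; SE 0.42 for both), and the groups overlapped.

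Dct, the most abundant of the 10 in all 10 libraries, gave 69.2 and 57.1 FPKM in knockout cultures with IL-17A and 71.4 and 57.0 FPKM in unstimulated ones, against 69.8, 164.8 and 111.7 FPKM in heterozygous cultures with IL-17A and 75.6, 149.5 and 104.5 FPKM in unstimulated ones. The knockout libraries were the lowest in both conditions, without overlap, yet the culture labelled heterozygous 1 exceeded knockout culture 1 by less than the knockout cultures differed from each other. The log2 difference was -0.78 with IL-17A (SE 0.36, adjusted p = 0.507) and -0.72 unstimulated (SE 0.36, adjusted p = 0.728).

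**Figure D1:**
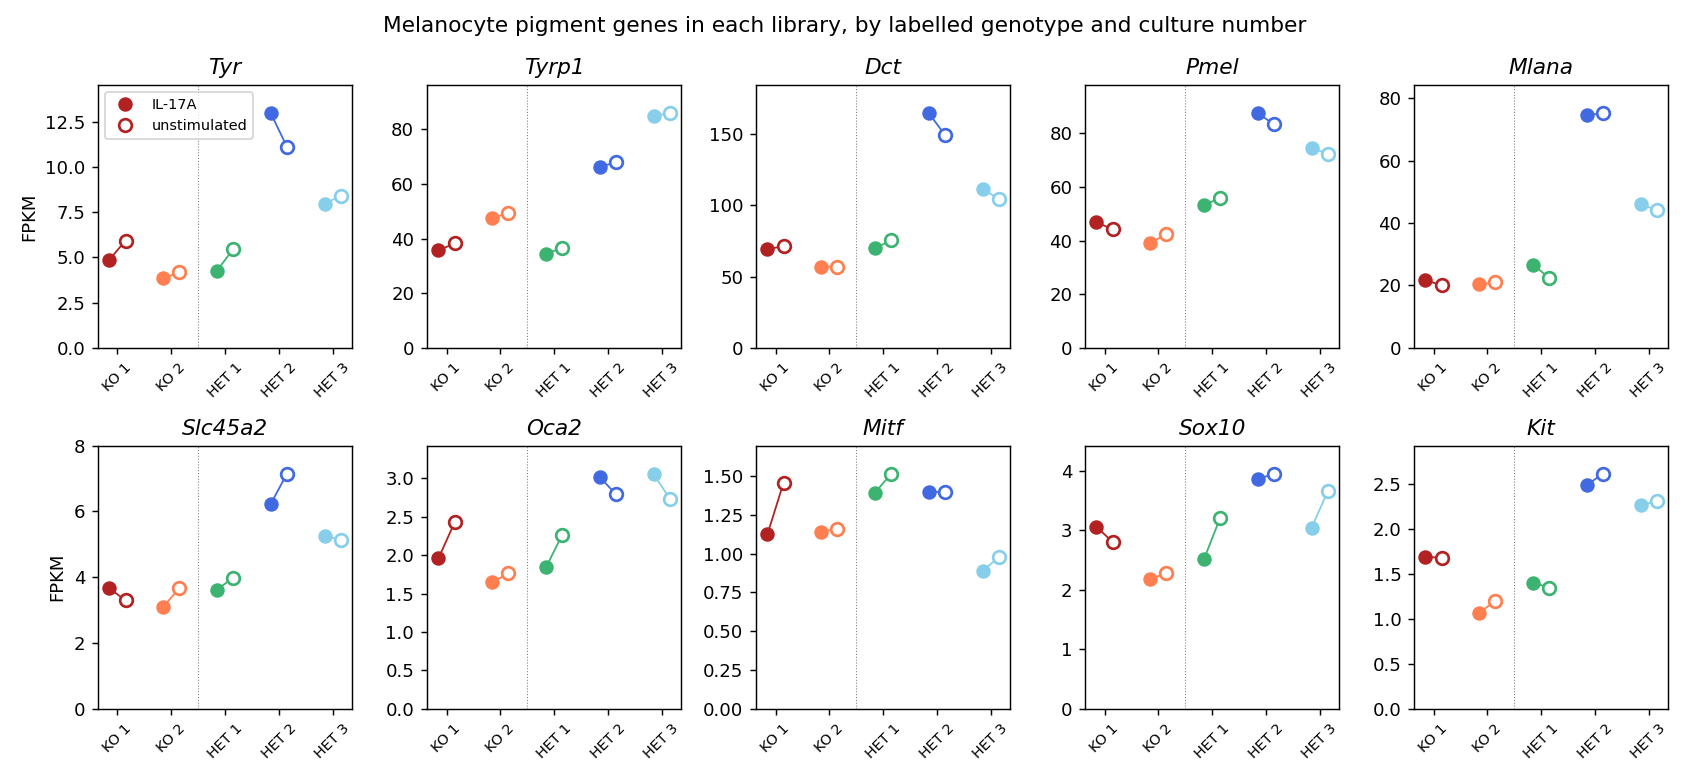
FPKM of each of the 10 pigment genes in the 10 libraries on linear axes from 0, by culture, with knockout (KO) cultures left of heterozygous (HET) ones; filled points are IL-17A libraries, open points unstimulated ones, and a line joins the libraries of a culture. In 8 of the 10 panels the 4 libraries of heterozygous cultures 2 and 3 lie above the other 6; Sox10 and Mitf overlap.

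Pmel was read at 46.8 and 39.2 FPKM in knockout cultures with IL-17A and at 44.2 and 42.3 FPKM in unstimulated ones, against 53.1, 87.5 and 74.6 FPKM in heterozygous cultures with IL-17A and 55.9, 83.3 and 72.3 FPKM in unstimulated ones. All heterozygous libraries were above all knockout libraries, and the culture labelled heterozygous 1 was the nearest to them. Its differences of -0.70 with IL-17A and -0.67 unstimulated (SE 0.22 for both) were the only ones of the 10 genes at an unadjusted p under 0.05 (0.0122 and 0.0148), and did not pass after adjustment over all genes (0.507 and 0.728).

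Mlana had 21.7 and 20.4 FPKM in knockout cultures with IL-17A and 20.0 and 21.0 FPKM in unstimulated ones, against 26.6, 74.5 and 46.0 FPKM in heterozygous cultures with IL-17A and 22.4, 75.2 and 44.2 FPKM in unstimulated ones. The knockout libraries were close to each other and below all heterozygous ones, while the heterozygous cultures spread 3.05-fold between cultures 2 and 1. That spread carried the widest standard error of the 10 genes: -1.06 with IL-17A (adjusted p = 0.507) and -1.01 unstimulated (adjusted p = 0.728), with an SE of 0.49 in each.

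Among the transport proteins, Slc45a2 stood at 3.66 and 3.10 FPKM in knockout cultures with IL-17A and at 3.29 and 3.66 FPKM in unstimulated ones, against 3.62, 6.23 and 5.25 FPKM in heterozygous cultures with IL-17A and 3.99, 7.14 and 5.14 FPKM in unstimulated ones. The groups overlapped with IL-17A through the culture labelled heterozygous 1 and did not overlap unstimulated. The differences were -0.44 with IL-17A (adjusted p = 0.507) and -0.49 unstimulated (adjusted p = 0.728), each with an SE of 0.23. Oca2 gave 1.96 and 1.65 FPKM in knockout cultures with IL-17A and 2.43 and 1.76 FPKM in unstimulated ones, against 1.84, 3.02 and 3.06 FPKM in heterozygous cultures with IL-17A and 2.26, 2.79 and 2.74 FPKM in unstimulated ones. Oca2 overlapped in both conditions, and heterozygous cultures 2 and 3 were nearly level with each other. Its differences were -0.36 with IL-17A (adjusted p = 0.507) and -0.22 unstimulated (adjusted p = 0.728), with an SE of 0.18.

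Of the regulators, Mitf was not high in heterozygous cultures 2 and 3. It was at 1.13 and 1.14 FPKM in knockout cultures with IL-17A and at 1.46 and 1.16 FPKM in unstimulated ones, against 1.39, 1.40 and 0.887 FPKM in heterozygous cultures with IL-17A and 1.52, 1.40 and 0.979 FPKM in unstimulated ones. Heterozygous culture 3, where Tyrp1 was highest, had the lowest Mitf, and the culture labelled heterozygous 1 had the highest. Knockout over heterozygous was -0.053 with IL-17A (95% interval -0.41 to 0.30) and 0.013 unstimulated (-0.35 to 0.37), with adjusted p of 0.864 and 0.977. MITF is also used by macrophages and mast cells, and the table gives 1 value over all its transcripts, 8 in the annotation, so the melanocyte form was not told apart.

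Sox10, a neural crest factor that Schwann cells share, was at 3.06 and 2.19 FPKM in knockout cultures with IL-17A and at 2.81 and 2.28 FPKM in unstimulated ones, against 2.52, 3.87 and 3.05 FPKM in heterozygous cultures with IL-17A and 3.21, 3.95 and 3.66 FPKM in unstimulated ones. The unstimulated groups did not overlap, whereas with IL-17A knockout culture 1 lay above heterozygous cultures 1 and 3. Differences were -0.19 with IL-17A (SE 0.17, adjusted p = 0.570) and -0.38 unstimulated (SE 0.17, adjusted p = 0.728). Kit gave 1.69 and 1.07 FPKM in knockout cultures with IL-17A and 1.68 and 1.21 FPKM in unstimulated ones, against 1.41, 2.50 and 2.27 FPKM in heterozygous cultures with IL-17A and 1.35, 2.62 and 2.32 FPKM in unstimulated ones. Kit overlapped in both conditions, with the culture labelled heterozygous 1 between the knockout cultures. The differences were -0.36 with IL-17A (SE 0.24, adjusted p = 0.512) and -0.32 unstimulated (SE 0.24, adjusted p = 0.728).

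With all cultures, then, no pigment gene passed an adjusted p of 0.05 between genotypes. With IL-17A, limma called 0 of the 10, and 1 at an unadjusted p under 0.05, where it called 3 of 12054 genes (0.0249%) over the table and 981 (8.14%) at the unadjusted threshold. Unstimulated, it called 0 of the 10, and 1 unadjusted, beside 0 of 12054 genes (0%) and 562 (4.66%). The median log2 difference of the 10 was -0.46 with IL-17A and -0.47 unstimulated, against -0.0094 and -0.015 over all genes tested; 10 were below 0 with IL-17A and 9 unstimulated, Mitf being the exception. Knockout libraries lay below all heterozygous ones for Dct, Pmel and Mlana with IL-17A, 3 of 10 where 13.8% of all genes did so, and for Dct, Pmel, Mlana, Sox10 and Slc45a2 unstimulated, 5 of 10 where 15.4% did.

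Without the culture labelled heterozygous 1, the differences were larger and the pigment genes partly passed. With IL-17A, Pmel fell in knockout cultures by 0.90 (SE 0.13, adjusted p = 0.0269), Mlana by 1.43 (SE 0.29, adjusted p = 0.0408) and Dct by 1.10 (SE 0.24, adjusted p = 0.0480), 3 of 10 lower where 2.86% of 12061 genes were called lower and 6.65% in either direction. Tyr (-1.07, adjusted p = 0.0518), Tyrp1 (-0.85, 0.0541), Oca2 (-0.53, 0.0549) and Slc45a2 (-0.62, 0.0568) just missed the threshold, and Mitf was at 0.0035 (0.991). Unstimulated, Pmel alone was called (-0.83, SE 0.13, adjusted p = 0.0487), 1 of 10 where 0.622% of genes were called lower and 0.970% in either direction. In these 4-culture values knockout genotype and library numbers 1 to 14 coincide in full, and they cannot be told apart. The fit also counts the 2 libraries of a culture as independent when it estimates the spread. The SE and adjusted p-values from limma may therefore be too small, which matters most for calls this near the threshold.

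Within libraries 1 to 14, which hold the knockout cultures and the culture labelled heterozygous 1, limma called 0 of the 10 genes in either condition, where it called 8 of 12073 genes (0.0663%) in each. Dct was -0.15 with IL-17A and -0.24 unstimulated, Pmel -0.30 and -0.36, Mlana -0.33 and -0.12, and Tyrp1 0.25 in both, with the lone heterozygous culture assumed to vary like the knockout ones. These values were smaller than those over all 5 cultures, and that of Tyrp1 had the opposite sign. They compare the knockout cultures with a culture whose Bcl10 level is that of most knockout libraries.

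**Figure D2:**
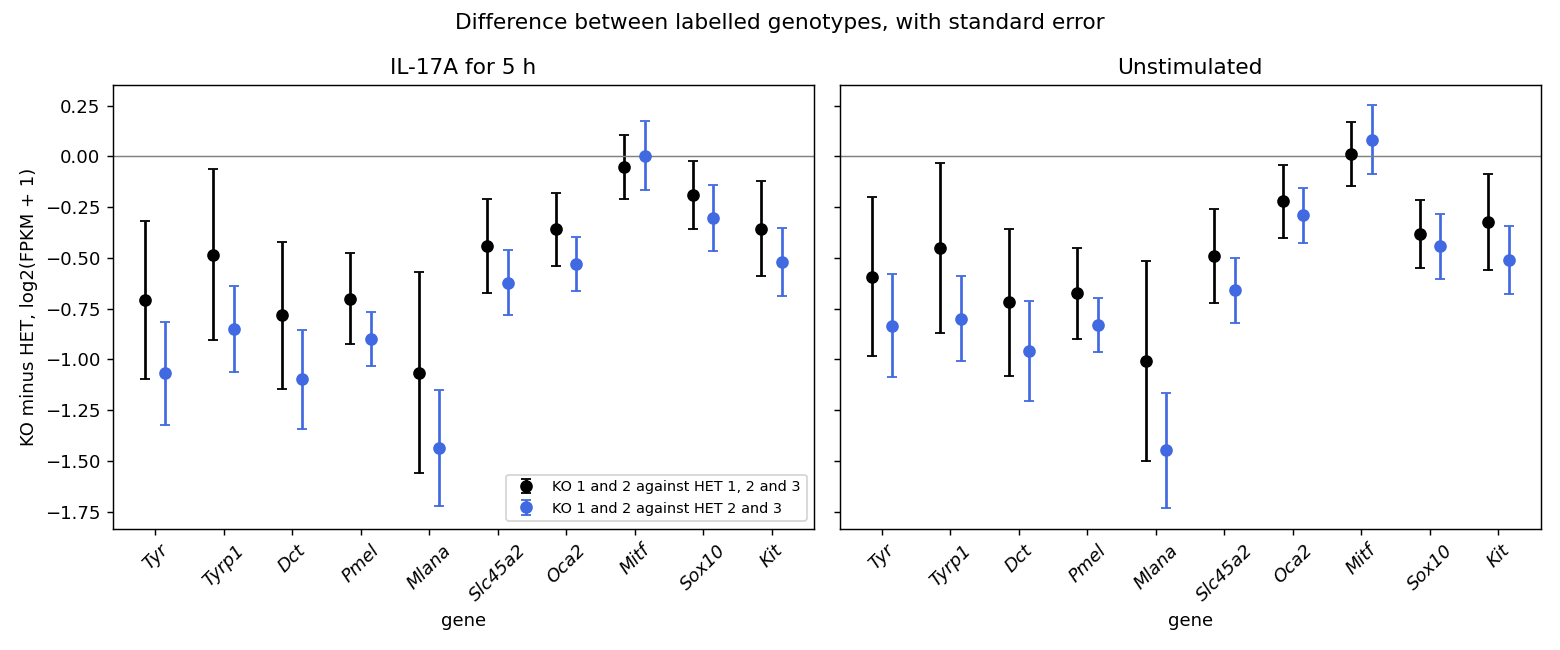
Log2 difference of knockout over heterozygous for the 10 pigment genes with IL-17A and unstimulated, on the log2(FPKM + 1) scale, with all cultures (black) and without the culture labelled heterozygous 1 (blue); points are limma estimates and bars their standard errors. Without that culture the values lie farther below 0 for all genes but Mitf.

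The library numbers and the Bcl10 level divide the libraries in the same way, and most of the 10 genes followed that division. The 4 libraries numbered 33 to 38 lay above the 6 numbered 1 to 14, without overlap, for 8 of the 10 genes, where 18.4% of all genes tested were higher in this way and 17.4% lower. The mean over libraries 33 to 38 exceeded that over libraries 1 to 14 by 2.72-fold for Mlana, 2.13-fold for Tyr, 1.99-fold for Dct, 1.89-fold for Tyrp1, 1.73-fold for Kit, 1.69-fold for Pmel, 1.67-fold for Slc45a2 and 1.46-fold for Oca2. Sox10 overlapped at a ratio of 1.36, and Mitf was at 0.897. The enzyme genes, Pmel and Mlana thus differed more between the number sets than Mitf and Sox10 did, and this order was not tested. It does not extend to all transcription factors of the lineage. Pax3, which missed the minimum for testing, was at 0.706 to 1.22 FPKM in libraries 33 to 38 and 0.315 to 0.639 FPKM in libraries 1 to 14. Tfap2a was lower in libraries 33 to 38.

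Summed over the 10 genes, the level was 189.7 and 177.1 FPKM in the knockout cultures with IL-17A and 191.5 and 183.9 FPKM unstimulated, against 199.1, 423.0 and 339.5 FPKM in heterozygous cultures with IL-17A and 208.2, 404.9 and 330.1 FPKM unstimulated. The culture labelled heterozygous 1 lay just above the knockout cultures, and far below heterozygous cultures 2 and 3. Per 1000 FPKM of Krt5 the sum was 62.4 to 95.5 in libraries 33 to 38 and 29.8 to 35.5 in libraries 1 to 14. The sum was between 0.0493% and 0.106% of all FPKM in the table. In bulk RNA, fewer melanocytes and less pigment gene RNA per melanocyte cannot be told apart.

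**Figure D3:**
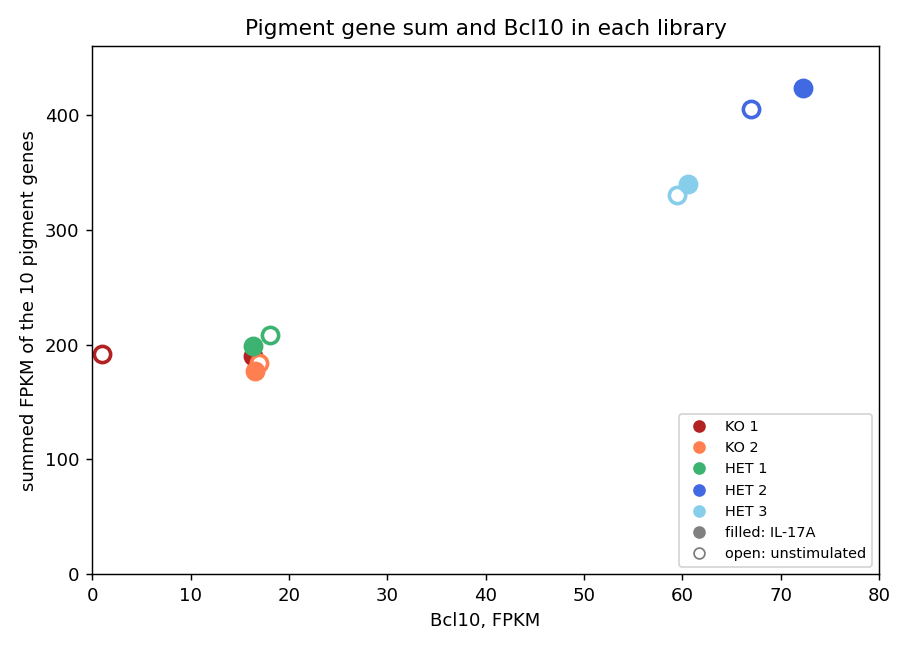
Summed FPKM of the 10 pigment genes in each library (vertical axis) against Bcl10 FPKM (horizontal axis), in colours by culture, with filled points for IL-17A and open points for unstimulated libraries. The 4 libraries at a Bcl10 level of 59.5 FPKM or above have sums of 330.1 to 423.0 FPKM, and the 6 at 18.0 FPKM or below have sums of 177.1 to 208.2 FPKM.

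None of the 10 genes passed the adjusted threshold for IL-17A in limma. Averaged over the 5 cultures, with the IL-17A library of each culture set against its unstimulated one, limma called 0 of the 10, and 0 at an unadjusted p under 0.05, where it called 18 of 12054 genes (0.149%), all higher, and 727 (6.03%) unadjusted. The log2 change of IL-17A over unstimulated ran from -0.098 for Tyr (95% interval -0.28 to 0.087, adjusted p = 0.932) to 0.070 for Mlana (-0.048 to 0.19, adjusted p = 0.929). Over the 10 genes the 95% intervals of the fold change, on the FPKM + 1 scale, reached from 0.822 to 1.14, so a larger average change in either direction is outside them. Without knockout culture 1, whose paired libraries differ in Bcl10, limma also called 0 of the 10. Median values were -0.056 for the 10 genes and -0.0077 for all genes tested.

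Single cultures moved either way. Of 50 ratios of IL-17A over unstimulated, 18 were above 1 and 32 below, and they lay between 0.771 (Mitf in knockout culture 1) and 1.19 (Mlana in the culture labelled heterozygous 1). Tyrp1 was lower with IL-17A in 5 of 5 cultures, at ratios of 0.932 and 0.962 in knockout cultures 1 and 2 and of 0.945, 0.977 and 0.987 in heterozygous cultures 1, 2 and 3; 4.29% of all genes were lower in 5 of 5. Its average was -0.057 (95% interval -0.13 to 0.019, adjusted p = 0.895). Dct, by contrast, was at ratios of 0.969 and 1.00 in the knockout cultures and of 0.924, 1.10 and 1.07 in the heterozygous ones.

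By genotype, limma called 0 of the 10 genes for IL-17A in knockout cultures (3 of 12054 genes, 0.0249%, over the table) and 0 in heterozygous ones (1 of 12054, 0.00830%), with 0 of the 10 at an unadjusted p under 0.05 in either, where 1.46% and 1.34% of all genes were. The changes were between -0.17 and 0.035 in knockout cultures and between -0.16 and 0.094 in heterozygous cultures. The difference in response, knockout minus heterozygous, was between -0.14 and 0.19 in log2. For it limma called 0 of the 10 and 0 of 12054 genes over the table (0%), with 143 (1.19%) at the unadjusted threshold. The fits in this paragraph had no term for culture, so differences between cultures widened their standard errors. For Mlana the SE was 0.54 in knockout and 0.44 in heterozygous cultures, against 0.049 over the 5 cultures with culture in the fit. The lack of calls here thus says less than that over the 5 cultures. With culture as a fixed term no pigment gene was called either.

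**Figure D4:**
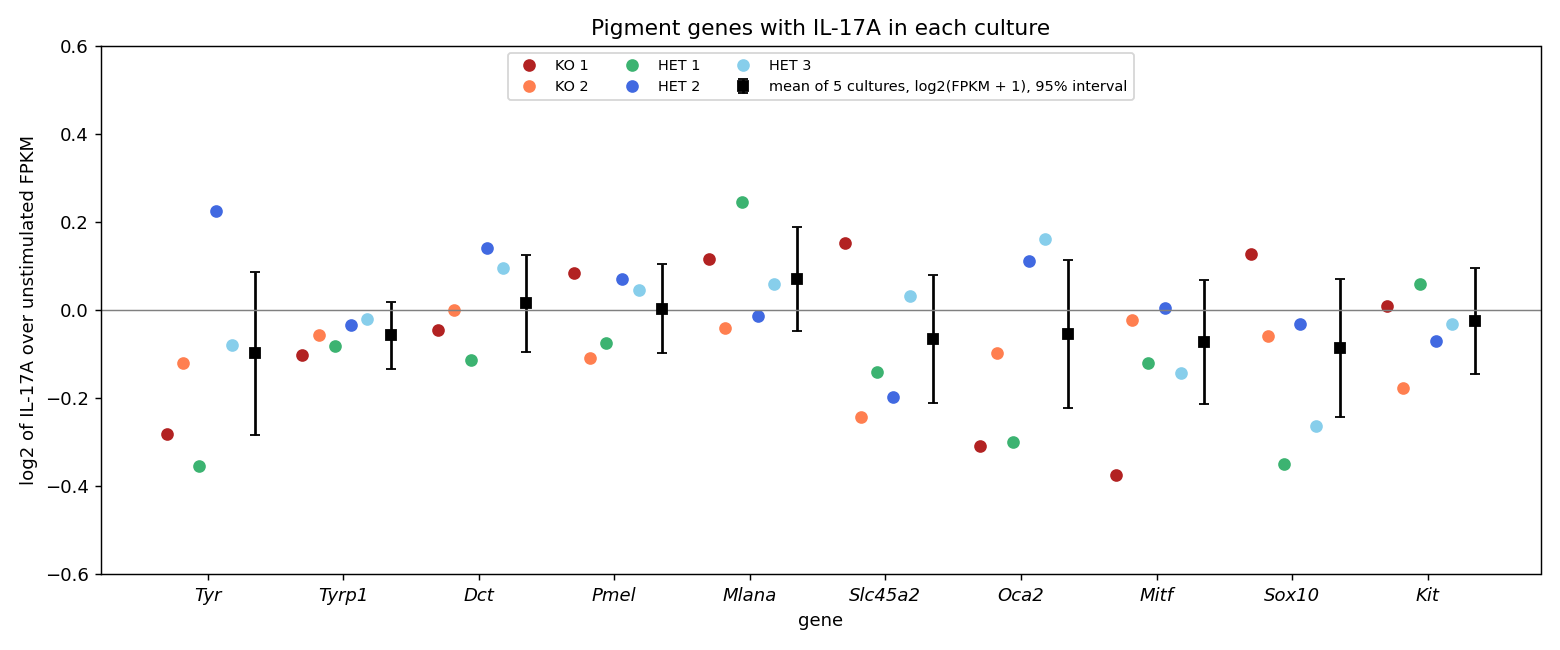
Log2 ratio of IL-17A over unstimulated FPKM for each of the 10 pigment genes, 1 coloured point per culture; black squares are the means over 5 cultures on the log2(FPKM + 1) scale with 95% intervals. Points lie on both sides of 0 for all genes but Tyrp1, whose 5 points are below 0.

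Cultures differed from each other by more than IL-17A moved any of them. For each of the 10 genes, the fold between the highest and the lowest culture mean, 1.56 for Mitf to 3.62 for Mlana, was above the largest fold between the 2 libraries of any culture. By culture mean, knockout culture 2 was lowest in 8 of the 10 genes and heterozygous culture 2 highest in 8, with Tyrp1 and Mitf the exceptions at both ends. Some of these places were near ties. Mlana averaged 20.7 FPKM in knockout culture 2 and 20.9 in knockout culture 1, and Slc45a2 3.38 and 3.47. Unstimulated, both genes were lower in knockout culture 1. Oca2 averaged 2.91 FPKM in heterozygous culture 2 and 2.90 in heterozygous culture 3. How many of all genes share this order, or differ more between cultures than within them, was not counted.

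The makeup of the pigment signal also differed between cultures, most plainly in the ratio of Dct to Tyrp1, which was alike in the 2 libraries of a culture. The ratio of Dct to Tyrp1 FPKM was 1.94 with IL-17A and 1.87 unstimulated in knockout culture 1, and 1.20 and 1.16 in knockout culture 2. It was 2.03 and 2.07 in the culture labelled heterozygous 1, 2.49 and 2.20 in heterozygous culture 2, and 1.32 and 1.22 in heterozygous culture 3. Knockout culture 2 and heterozygous culture 3 thus shared a low ratio although their sums differed, and the ratio crossed both the genotype and the number sets. Mlana over Pmel, by comparison, was 0.611 to 0.903 in libraries 33 to 38 and 0.401 to 0.520 in libraries 1 to 14, without overlap. Within the culture labelled heterozygous 1 it was 0.501 with IL-17A and 0.401 unstimulated. Sox10 over Mitf lay between 1.81 and 3.74, highest in heterozygous culture 3. It differed within knockout culture 1, at 2.72 with IL-17A and 1.92 unstimulated.

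**Figure D5:**
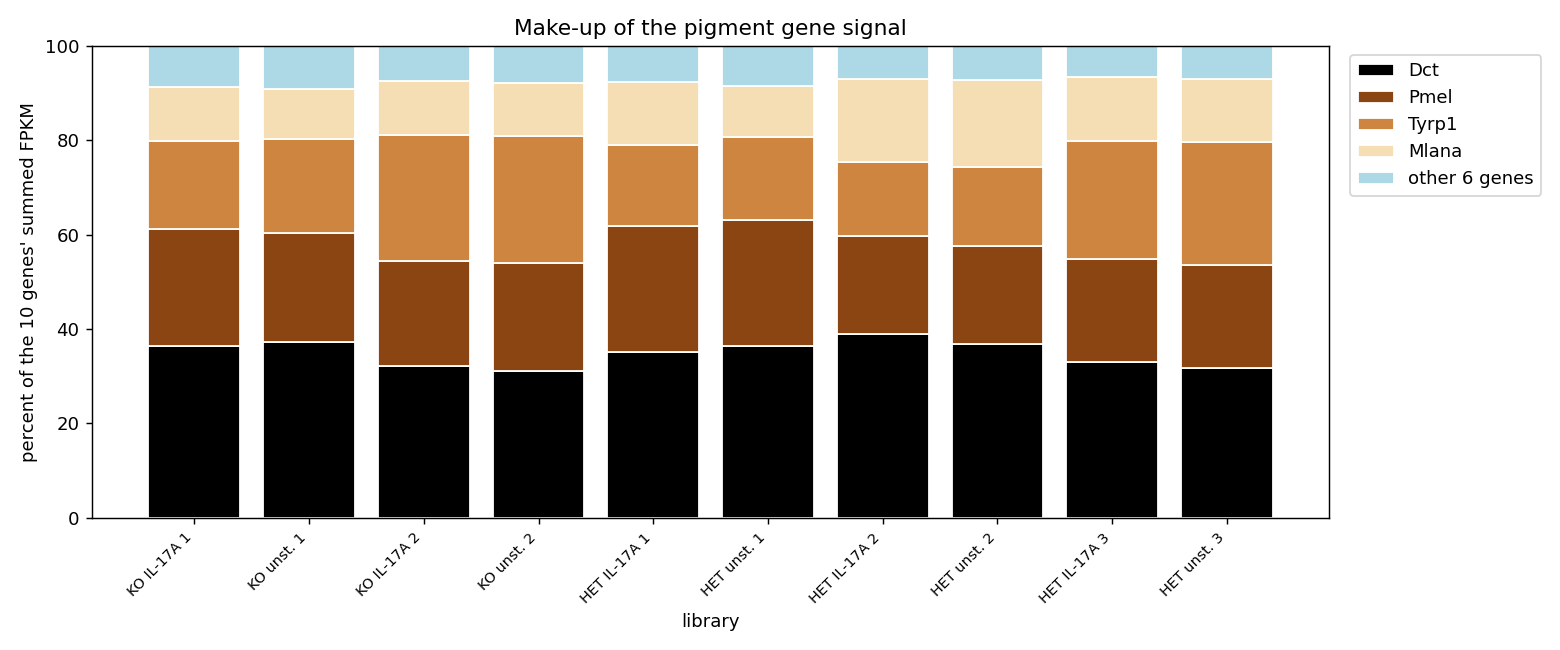
Share of Dct, Pmel, Tyrp1, Mlana and the other 6 pigment genes, in percent of the 10 genes' summed FPKM, in the 10 libraries, with knockout libraries left of heterozygous ones. Dct, Pmel, Tyrp1 and Mlana fill 90.8% to 93.4% of every bar, and the Tyrp1 share is larger in knockout culture 2 and heterozygous culture 3 than in the other cultures.

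As a description, the log2 level of each gene was correlated with the mean of the other 9. Over all 10 libraries, which fall into the 2 number sets, Pearson's r was 0.870 to 0.986 for 8 of the genes, 0.713 for Tyrp1 and -0.10 for Mitf, and these values largely reflect the step between the sets. Within the 6 libraries numbered 1 to 14, from 3 cultures, the picture differed for several genes. There r was 0.936 for Dct, 0.847 for Sox10, 0.815 for Oca2, 0.774 for Tyr, 0.741 for Mitf, 0.731 for Pmel, 0.584 for Kit and 0.580 for Slc45a2. Mlana was at 0.138 and Tyrp1 at -0.870, so that Mitf went with the other genes and Tyrp1 against them, unlike over all libraries. The 4 libraries numbered 33 to 38, from 2 cultures, are too few for a value; there, too, Mitf was higher in heterozygous culture 2 and Tyrp1 in heterozygous culture 3, while Oca2 was nearly level. Over all 10 libraries, and so with the same step in it, the genes outside the 10 whose profile was most like their mean were Slc24a5, a melanosomal ion exchanger gene, at r = 0.991, then Ppp1r14c at 0.990, Rab38, a small GTPase that delivers enzymes to melanosomes, at 0.988, Gucd1 at 0.987 and Gabarapl2 at 0.986. Such values were common, since 1123 of 12054 genes (9.32%) had r above 0.9. Slc24a5 lay between 8.90 and 12.3 FPKM in libraries 33 to 38 and between 4.35 and 6.42 FPKM in libraries 1 to 14.

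A list of 17 further melanocyte lineage genes gave 11 that could be tested, and limma called 0 of them between genotypes in either condition. At an unadjusted p under 0.05, Slc24a5 (-0.72 in log2) and Ednrb, the endothelin receptor gene (-0.41), were lower and Mreg, which encodes melanoregulin (0.35), higher in knockout cultures with IL-17A. Unstimulated, Slc24a5 (-0.77), Tspan10 (-0.41) and Ednrb (-0.25) were lower and Mreg (0.44) higher. Of all genes, 8.14% with IL-17A and 4.66% unstimulated were at that threshold in either direction. The median of the 11 was -0.25 with IL-17A and -0.31 unstimulated. The setting without the culture labelled heterozygous 1 was added for this list and the ligands after seeing the data. In it limma called Slc24a5 lower (-1.02, adjusted p = 0.0324) and Mreg higher (0.48, adjusted p = 0.0342) with IL-17A. Unstimulated, it called Mreg higher (0.55, adjusted p = 0.0448). Of all genes, 6.65% with IL-17A and 0.970% unstimulated were called in either direction. Ednrb was at -0.40 with IL-17A (adjusted p = 0.0690) and -0.25 unstimulated (0.219), and Tspan10 at -0.53 unstimulated (0.0936). The medians were -0.36 and -0.47. Knockout genotype and library numbers 1 to 14 cannot be told apart in this setting, and adjusted p-values may be too small. Rab38, the highest of the list, was at 46.9 to 57.1 FPKM in libraries 33 to 38 and 35.5 to 37.7 FPKM in libraries 1 to 14. Gpnmb, a melanosome glycoprotein also made by macrophages, was at 23.9 to 32.4 FPKM in libraries 33 to 38 and 17.1 to 18.4 FPKM in libraries 1 to 14. Tfap2a, a transcription factor that keratinocytes also use, and Myo5a, the motor that carries melanosomes, went the other way, at 18.7 to 24.6 and 8.07 to 9.74 FPKM in libraries 33 to 38 and at 26.3 to 29.8 and 11.0 to 14.1 FPKM in libraries 1 to 14. Limma called 0 of the 11 for IL-17A over the 5 cultures as well, and Tspan10 was lower (-0.26) at the unadjusted threshold.

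Keratinocytes supply melanocytes with ligands and antagonists, and 4 of a list of 12 such genes reached the minimum level. Asip, also on the list, was not found in the deposited table. Kitl, which encodes the ligand of KIT, was at 7.26 and 9.11 FPKM in knockout cultures with IL-17A and 9.46 and 9.27 FPKM in unstimulated ones, against 8.88, 12.2 and 7.88 FPKM in heterozygous cultures with IL-17A and 8.43, 10.9 and 7.83 FPKM in unstimulated ones. Kitl overlapped between genotypes in both conditions. Edn1, whose product endothelin-1 stimulates melanocytes, was at 15.3 and 19.5 FPKM in knockout cultures with IL-17A and 14.6 and 17.0 FPKM in unstimulated ones, against 26.3, 53.4 and 50.9 FPKM in heterozygous cultures with IL-17A and 15.9, 44.5 and 43.3 FPKM in unstimulated ones. Edn1 was high in heterozygous cultures 2 and 3, as most pigment genes were. The others were Tnf, an inflammatory cytokine gene, at 3.94 to 29.7 FPKM, and Csf2, which encodes GM-CSF, at 0.575 to 24.0 FPKM. Limma called 0 of the 4 between genotypes. At an unadjusted p under 0.05, Edn1, Tnf and Csf2 were lower in knockout cultures with IL-17A (-1.22, -1.76 and -2.55 in log2) and Csf2 unstimulated (-2.29). Without the culture labelled heterozygous 1, limma called these 3 lower in both conditions, with log2 differences for Edn1 of -1.54 with IL-17A and -1.42 unstimulated (adjusted p of 0.0061 and 0.0104), for Tnf of -2.34 and -2.05 (0.00125 and 0.00127) and for Csf2 of -3.21 and -3.22 (0.00125 and 0.00127), but not Kitl (-0.24 and 0.015, adjusted p of 0.447 and 0.970). In this setting 2.86% of all genes with IL-17A and 0.622% unstimulated were called lower. Knockout genotype and the library number set coincide in full there, so their effects cannot be told apart. Paired libraries of a culture counted as independent, so these adjusted p-values may be too small. For IL-17A over the 5 cultures limma called 0 of the 4. Edn1 (0.29), Tnf (0.29) and Csf2 (0.89) were higher with IL-17A at the unadjusted threshold.

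Other cell types that share some of the 10 genes were looked for by their markers. Of 8 mast cell markers, a cell type that also expresses Kit and Mitf, 6 were listed at 0 in every library (Cpa3, Mcpt4, Tpsb2, Fcer1a, Ms4a2 and Hdc), and the sum was 0.231 to 0.248 FPKM in knockout libraries with IL-17A, 0.0597 to 0.254 in unstimulated ones, at most 0.148 in heterozygous libraries with IL-17A and at most 0.0520 in unstimulated ones. Of 7 immune markers, 5 were listed at 0 in every library (Ptprc, Cd207, Cd3e, Lyz2 and Itgam), and the sum was at most 0.0367 FPKM. The 9 Schwann cell and neural crest markers, which go with Sox10, summed to 14.6 to 19.0 FPKM in libraries 33 to 38 and 18.5 to 20.1 FPKM in libraries 1 to 14, not higher where the pigment genes were.

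Markers of the skin's other cells differed between libraries as well. The 10 keratinocyte markers, mostly Krt5 and Krt14, summed to 9795 to 11229 FPKM in libraries 33 to 38 and 12088 to 13434 FPKM in libraries 1 to 14, without overlap. Krt5, Krt14, Itga6, Itgb4, Col17a1, Dsg3 and Dsp were each higher in libraries 1 to 14 without overlap, as 17.4% of all genes were. Perp went the other way, at 967 to 1060 against 844 to 944 FPKM. Trp63 overlapped, and Krt15 was at most 0.180 FPKM. Of 6 Merkel cell markers, Krt8 and Krt18, keratins of simple epithelia that are not particular to Merkel cells, made up nearly all of a sum of 33.0 to 41.0 FPKM in libraries 33 to 38 and 46.4 to 59.0 FPKM in libraries 1 to 14. The defining Merkel cell genes Atoh1 and Krt20 averaged 0.0844 and 0.180 FPKM. Fibroblast markers (8 genes) summed to 37.8 FPKM with IL-17A and 37.4 FPKM unstimulated in knockout culture 2, and to 0.399 to 1.49 FPKM in the other cultures. In knockout culture 2, 8 of the pigment genes had their lowest culture mean, Mlana and Slc45a2 only narrowly. The 4 endothelial markers, mostly Kdr, summed to 4.40 to 5.13 FPKM in knockout libraries with IL-17A and 4.44 to 5.08 FPKM in unstimulated ones, against 5.47 to 6.04 FPKM in heterozygous libraries with IL-17A and 5.17 to 6.03 FPKM in unstimulated ones. The sums of knockout libraries were thus below those of heterozygous ones, the culture labelled heterozygous 1 included. This came from Kdr, at 3.2 to 3.4 FPKM in knockout and 4.2 to 4.9 FPKM in heterozygous libraries. Of all genes, 13.8% with IL-17A and 15.4% unstimulated were lower in knockout libraries without overlap. Pecam1 overlapped and leaned the other way (0.25 in log2 with IL-17A and 0.24 unstimulated). Cdh5, a defining endothelial gene, was listed at 0.0580 FPKM or less. The part of these differences in the levels of the pigment genes was not tested.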

How the data were processed

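Poly(A) RNA was sequenced from primary mouse keratinocytes in 10 libraries. What the authors deposited is a single table with FPKM values of 37991 Ensembl identifiers. HISAT2, SAMtools, StringTie, DESeq2 and build mm10 are named per the submitters' processing notes. Their versions, the annotation release and the strand setting were not given in the sources used here. Symbols and positions came from GENCODE M21 (GRCm38), which matched 32919 identifiers; 17074 were at 0 in every library. Protein sequences were not used here. Groups follow the labels. The members, gene lists and tests were chosen with earlier results of these data known; named were all 10 members, the 4 most abundant tested genes of each further list and the genes most like the members' mean.

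The 12054 genes whose mean reached 1 FPKM were tested on log2(FPKM + 1) with limma 3.58.1 in R 4.3.3 (mean-variance trend, 4 group means in 1 fit, two-sided, Benjamini-Hochberg adjustment over all genes tested, threshold 0.05), since FPKM values are not counts. The fit was tested on simulated data, in which all libraries were independent. The comparisons between genotypes, the IL-17A comparisons by genotype and the difference in response had no term for culture. The 2 libraries of a culture thus counted as independent in the shared spread. P-values between genotypes may be too small. Those for IL-17A by genotype and for the difference in response may be too large. The 5-culture IL-17A effect has culture as a fixed term. Numbers were taken to pair libraries within a genotype, because deviations from the group means correlated at 0.227 in knockout cultures (1 value, since with 2 cultures the deviations mirror) and, for heterozygous cultures 1, 2 and 3, at 0.607, 0.488 and 0.137; across genotypes they gave -0.155 to 0.0476 and were not taken as pairs.

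Depth is not in the table. In 4158 single-exon genes of 300 to 3000 bases, FPKM steps were read as fragments: 48.6% to 55.3% of low values (1 to 3 fragments) were whole to within 0.05, where an even spread gives 10%. This puts the libraries at 15.9 to 50.8 M fragments. The highest value is that of knockout culture 1 with IL-17A alone, and the next is 28.8 M. It could be a multiple of the true depth, and the lower end of the next range rests on it. By this estimate 3 fragments in 1 kb equal 0.0590 to 0.188 FPKM, counting error only, below every value of the 10 genes. Between 11889 and 12092 genes per library reached 1 FPKM. Alternatives changed the pseudocount, filter, scaling, library weights, block and libraries used.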

Additional observations from a re-analysis of the deposited data

How the results depend on the processing

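No pigment gene was called for IL-17A over unstimulated, in either genotype, over the 5 cultures or in the difference in response, under any alternative run. Between genotypes, calls among the 10 came from leaving out the culture labelled heterozygous 1 (3 with IL-17A, 1 unstimulated) and from library weights. Weights called 2 in limma unstimulated, Pmel (-0.72, adjusted p = 0.0353) and Mlana (-1.08, adjusted p = 0.0444). No other alternative, and no other library or culture left out, gave a call among them. Why these settings differ was not tested.

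The number of all genes called was small and unstable. For knockout over heterozygous with IL-17A, 3 in the main setting, it was 6 with no filter, 0 with TPM scaling, 20 with library weights, 0 with the number block across genotypes, 8 in libraries 1 to 14, 1 with only the groups compared, and 0 to 802 on leaving out a library or culture. Unstimulated, 0 in the main setting, it was 2, 646, 8 and 1 with no filter, library weights, libraries 1 to 14 and only the groups compared, and 0 to 117 on leaving out. For IL-17A in knockout cultures (3) it was 5 with no filter, 1 with TPM scaling, 8 with weights, 0 with culture as a fixed replicate block, 14 with it as a random one and 0 to 12 on leaving out. In heterozygous cultures (1) it was 2 with a pseudocount of 0.1, 2 with that pseudocount and a mean of at least 0.1 FPKM together, 1 with that filter alone, 2 with TPM scaling, 128 with weights, 0 with only the groups compared, 0 with the fixed block, 15 with the random block and 0 to 2 on leaving out. For the difference in response (0) it was 1, 4 and 5 with no filter, weights and the random block, and 0 to 6 on leaving out. Over the 5 cultures (18) it was 6 with no filter, 31 with weights, 7 with no replicate block, 4 in libraries 1 to 14, 0 in libraries 33 to 38 and 0 to 14 on leaving out. The block across genotypes called 0 of the 10 genes.

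Signs turned where values were small or within a number set. In libraries 1 to 14, knockout over heterozygous was 0.25 with IL-17A and 0.25 unstimulated for Tyrp1, 0.018 with IL-17A for Tyr, 0.032 with IL-17A for Sox10, and unstimulated 0.050 for Kit and -0.13 for Mitf; the IL-17A effect there was -0.052 for Dct and -0.033 for Pmel. In libraries 33 to 38 it was 0.068 for Tyr and 0.10 for Oca2. Mitf was at 0.14 with library weights (IL-17A) and at -0.096 with the number block (unstimulated); on leaving out libraries or cultures it ran from -0.17 to 0.0053 with IL-17A and from -0.091 to 0.11 unstimulated. The IL-17A effect of Pmel was -0.0098 with weights; on leaving out a culture it ran from -0.016 to 0.031, and that of Dct from -0.015 to 0.048. The cause was not tested. FPKM gives no count per gene, so precision rests on 2 to 3 libraries a group.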
